A study of Homo sapiens with 27 samples.

Results

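The polyadenylated replacement histone genes described here are 7 human genes, H3-3A, H3-3B, H2AZ1, H2AZ2, H2AX, MACROH2A1 and H1-10, which encode variants of the core and linker histones. They were taken by name. A peak of a modification list counted as theirs where the list named 1 of these genes alone, and a pseudouridine peak counted where its summit lay inside the gene's span in the RefSeq annotation of GRCh38.p14. Of the 7 genes, 6 are among the 11528 genes that any antibody list names alone, and they hold 44 of 76940 antibody peaks, while every antibody peak of H3-3A names a second gene. The lists use current symbols for these genes, so 0 rows were found under older ones.

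The data come from HepAD38, a human hepatocellular carcinoma line derived from HepG2 that carries a hepatitis B virus genome, with total RNA sequenced in 27 libraries in 9 groups of 3. IP and input libraries were made for m1A (N1-methyladenosine), ac4C (N4-acetylcytidine), m7G (7-methylguanosine) and m5C (5-methylcytidine), and the last group was labelled for pseudouridine (Psi) without saying whether it was IP or input. IP stands for immunoprecipitation of modified RNA, and the input is RNA that did not pass through it. All groups are labelled genotype Wild type and tissue liver, and neither a drug treatment nor the state of the viral genome is given in the sources used here.

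Replication-dependent histone genes are expressed in S phase, lack introns, and end their mRNAs in a stem-loop. Replacement histone genes are transcribed through the cell cycle, most have introns, and their mRNAs carry a poly(A) tail, so an mRNA library can hold them. H2AX is a special case, since it makes both a short stem-loop mRNA and a longer polyadenylated one. H3-3A and H3-3B encode the same H3.3 protein from transcripts of different sequence, H2AZ1 and H2AZ2 encode the near-identical H2A.Z proteins, MACROH2A1 encodes a histone with a large macrodomain, and H1-10 encodes a linker histone from a gene without introns.

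Listed peaks reached the transcription start in most of these genes. In 6 of the 7 genes, H3-3A among them, antibody peaks covered bases within 30 bases after an annotated start, at 6 of 11 start sites. The share over all listed genes is not given here, so whether these genes differ from others in this was not tested. The sequences below, from RefSeq's promoter table for GRCh38.p14, show 100 bases before and 30 bases from each of those start sites. They are shown to place listed bases against the start, and capitals mark bases inside an antibody peak of that gene. They are H3-3A (chr1:226062616-226062745, plus strand), H3-3B (chr17:75779750-75779879, minus), H2AZ1 (chr4:99950246-99950375, minus), H2AZ2 (chr7:44848058-44848187, minus), H2AX (chr11:119095436-119095565, minus) and MACROH2A1 (chr5:135399202-135399331, minus).
H3-3A: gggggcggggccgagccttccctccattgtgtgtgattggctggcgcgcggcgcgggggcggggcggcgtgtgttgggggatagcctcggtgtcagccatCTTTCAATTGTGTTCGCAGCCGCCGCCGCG
H3-3B: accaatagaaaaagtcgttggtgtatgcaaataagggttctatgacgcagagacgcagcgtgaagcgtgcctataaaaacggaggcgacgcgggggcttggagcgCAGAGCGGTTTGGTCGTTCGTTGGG
H2AZ1: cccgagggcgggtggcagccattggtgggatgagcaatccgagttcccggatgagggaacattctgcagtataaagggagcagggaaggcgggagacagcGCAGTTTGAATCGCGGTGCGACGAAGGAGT
H2AZ2: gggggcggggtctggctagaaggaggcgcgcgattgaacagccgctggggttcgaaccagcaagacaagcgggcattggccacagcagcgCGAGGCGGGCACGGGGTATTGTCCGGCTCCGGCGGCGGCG
H2AX: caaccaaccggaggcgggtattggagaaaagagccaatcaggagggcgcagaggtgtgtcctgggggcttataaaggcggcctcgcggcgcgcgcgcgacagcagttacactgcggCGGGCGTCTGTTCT
MACROH2A1: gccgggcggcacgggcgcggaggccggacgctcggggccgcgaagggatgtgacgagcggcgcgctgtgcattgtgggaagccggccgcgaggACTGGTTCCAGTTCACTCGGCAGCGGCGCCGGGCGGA

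Counting the start base as 0, the first listed base in the sequences shown was at 0 in H3-3A and H2AZ1 and at 5 in H3-3B. It was at 16 in H2AX, at -7 in MACROH2A1 and at -10 in H2AZ2. In MACROH2A1 the 5′-most m1A, m5C and m7G peaks also hold a block upstream of the sequence shown (chr5:135399749-135399758). A gap of 510 bases separates it from the block that begins at -7. The H3-3A peaks here name a second gene as well, which is taken up below. H1-10 had no listed base near its start, and its peaks began 291 bases into the gene. In the 250 bases before a start, TATAAA (either strand, so also TTTATA) occurred in 4 of the 7 genes, H3-3B, H2AZ1, H2AX and H1-10, and in 13.0% of 27305 RefSeq genes. CCAAT (also ATTGG) occurred in 6 of the 7, all but H1-10, and in 37.0% of those genes. The 2 motifs were searched for separately, and a match is a run of letters, not a shown binding site.

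Each list gives 1 IP value and 1 input value per peak in RPM, that is reads scaled to the depth of the pool, over all libraries of a group together. No value therefore has a replicate error, and the sources used here do not say if the 3 libraries were separate cultures. Every RPM value was a whole number of reads once the pooled depth was known, so each peak's IP reads were set against its input reads in an exact binomial test, two-sided, with Benjamini-Hochberg adjustment over the whole list and a threshold of 0.05. It compares pooled libraries, not conditions, and the 95% exact (Clopper-Pearson) intervals given in parentheses cover counting error only. The pooled IP held 280714967 reads for m1A, 118320068 for m5C, 263344365 for m7G and 17135274 for ac4C. The pooled input held 364905848 reads for m1A, 241116540 for m5C, 259416505 for m7G and 333220800 for ac4C, so small differences pass the test in the first 3 lists. The median peak's IP over input ratio was 1.67 for m1A (log2 0.74), 1.01 for m5C (0.01) and 1.36 for m7G (0.45). The median gene's ratio, from reads summed over its peaks, was 1.52 for m1A, 1.17 for m5C and 1.60 for m7G. Ratios of peaks below are to be read against the peak medians, and summed ratios against the gene medians. Median scaling used the median peak throughout. Of 10 hepatocyte markers, 9 were listed for m1A, m5C and m7G alike, and 0 for ac4C. Of 8 fibroblast or mesenchymal markers, 7 were listed for ac4C, with a median ratio of 350 and summed levels of 918 RPM in the IP against 3.24 RPM in the input, and 0 for the other 3 modifications. Among leukocyte markers, LYZ was listed for m1A, m5C and m7G and not for ac4C, and of 3 endothelial markers 0 were listed in any of the 4.

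Peaks were listed for 6 of the 7 genes for m1A, for 4 for m5C, for 5 for m7G, for 5 for Psi and for 0 for ac4C. Among 11643 protein-coding genes in any list, 70.0% had an m1A peak, 66.7% an m5C peak, 60.9% an m7G peak, 37.6% an ac4C peak and 55.7% a Psi summit. H3-3B, H2AZ2, MACROH2A1 and H1-10 were in all 3 of the m1A, m5C and m7G lists, H2AZ1 was in the m1A and m7G lists, and H2AX was in the m1A list alone. The ac4C IP had the fewest reads, and its list also held 0 of 10 hepatocyte markers and 7 of 8 mesenchymal ones, so a gene with no listed peak there is not shown to lack the mark. The part of either in the 0 was not tested. Of the 44 peaks, 20 were made of several blocks separated by gaps and 24 of a single block. The peaks of H2AX and H1-10 all had 1 block.

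**Figure D1:**
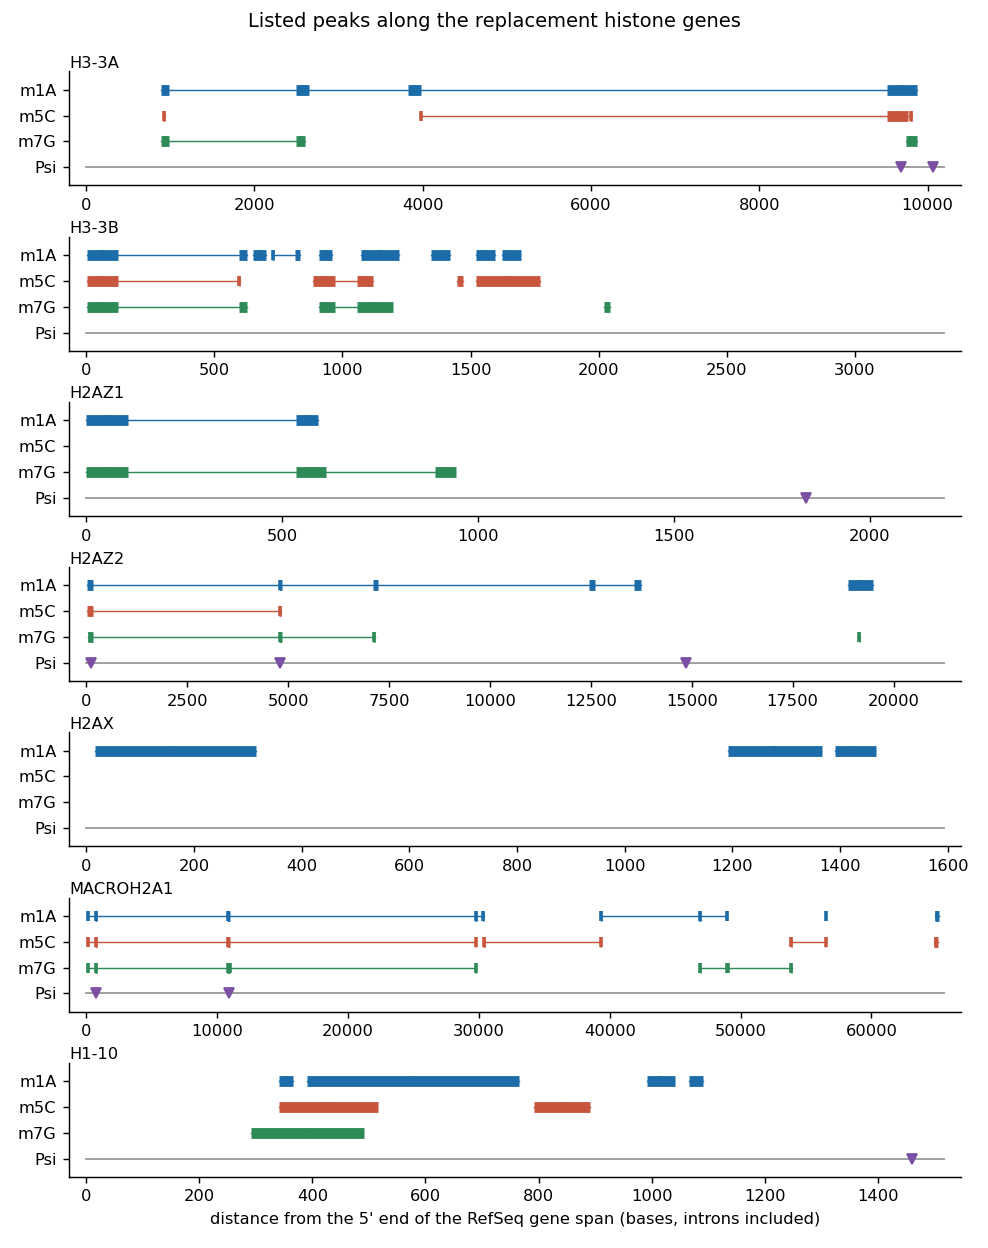
Listed peaks along each gene, with distance in bases from the 5′ end of the gene's RefSeq span on the horizontal axis and 1 row per modification. Thick bars are peak blocks, thin lines join the blocks of 1 peak, blocks too short for the scale are drawn at a fixed line width, triangles are Psi summits on the gene's span, and the H3-3A bars are peaks that name a second gene. In H3-3B, H2AZ1, H2AZ2 and MACROH2A1 the first peaks of the different modifications start at nearly the same place.

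For m1A, the linker histone gene and H2AX had the highest IP over input ratios with all listed peaks, and H3-3B was the only one of the 6 listed genes below 1. Among peaks better than the median by the authors' adjusted p, H2AZ2 had the highest ratio, 9.76, with 7.92 for H2AX and 5.74 for H1-10, and H3-3B was at 1.03. Of 22 m1A peaks, 15 were higher in the IP (background 60.6% of all m1A peaks) and 7 were lower (background 28.3%). The median ratio of the 22 peaks was 1.89, against 1.67 over all m1A peaks. Summed over a gene's peaks, 5 genes were higher in the IP (background 62.1% of m1A genes) and 1 was lower (background 31.4%). With the median peak set to a ratio of 1, 43.7% of all m1A peaks were higher and 44.0% lower, and 11 of the 22 were higher and 10 lower.

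H2AX, whose phosphorylated product marks DNA breaks, reached 49.8 RPM in the m1A IP against 7.96 RPM in the input, a ratio of 6.26 (6.01 to 6.51). H1-10 reached 77.0 RPM in the IP against 13.4 RPM in the input, a ratio of 5.75 (5.58 to 5.94). These are the highest of the 6 genes with all peaks, at the 87.3rd and 86.0th percentile of all m1A genes, and their counting intervals do not overlap. MACROH2A1, enriched on the inactive X chromosome as a protein, had 259 RPM in the IP against 84.3 RPM in the input, a ratio of 3.08 (3.04 to 3.12). H2AZ2 followed with 142 RPM in the IP against 63.1 RPM in the input, a ratio of 2.25 (2.22 to 2.29), which moved to 9.76 among the better-ranked peaks, where its 3′ peak is left out.

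H2AZ1, the other H2A.Z gene, had 19.1 RPM in the IP against 11.6 RPM in the input, a ratio of 1.64 (1.57 to 1.71), which was called higher. That ratio turned to 0.982 (adjusted p = 0.397 by the exact binomial test) with the median peak set to 1. Unscaled, it lay above the median of 1.52 over m1A genes, at the 52.8th percentile. H3-3B, 1 of the 2 H3.3 genes, had 56.4 RPM in the IP against 65.6 RPM in the input, a ratio of 0.860 (0.843 to 0.878, adjusted p = 4.6e-49 by the exact binomial test), which turned to 1.03 among the better-ranked peaks. Per 100 bases of listed peak, IP levels ran from 8.68 RPM in H3-3B and 9.05 in H2AX to 21.6 in MACROH2A1. Input levels per 100 bases had another order, from 1.45 RPM in H2AX and 2.82 in H1-10 to 10.1 in H3-3B. The 2 genes with the highest ratios were thus those with the lowest input levels per length. The input is the denominator of the ratio, so these 2 orders are not independent.

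For m5C, all 4 listed genes were lower in the IP than in the input, which held for 40.7% of m5C genes (49.8% were higher). Of 11 peaks, 9 were lower (background 42.5%) and 2 were higher (background 42.5%), and their median ratio was 0.312, against 1.01 over all m5C peaks. H1-10 had 9.09 RPM in the IP against 54.9 RPM in the input, a ratio of 0.166 (0.155 to 0.176), at the 0.457th percentile of m5C genes. H2AZ2 had 4.05 RPM in the IP against 13.0 RPM in the input, a ratio of 0.312 (0.283 to 0.344). These are the lowest of the 4 genes.

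MACROH2A1 had 59.2 RPM in the m5C IP against 142 RPM in the input, a ratio of 0.416 (0.406 to 0.427). H3-3B had 44.8 RPM in the IP against 61.4 RPM in the input, a ratio of 0.729 (0.706 to 0.752), which turned to 1.65 among peaks better than the median by the authors' adjusted p. In the authors' deposited table the log2 enrichment was above 0 for all 11 peaks, although the RPM ratio was below 1 for 9 of them, so that enrichment is not the log2 of the RPM quotient. The same held for 7 of 22 m1A peaks and 5 of 11 m7G peaks.

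For m7G, H2AZ1 had the highest ratio and H1-10 was not called. H2AZ1 had 86.9 RPM in the IP against 21.9 RPM in the input, a ratio of 3.97 (3.85 to 4.08). H2AZ2 had 63.9 RPM in the IP against 33.3 RPM in the input, a ratio of 1.92 (1.87 to 1.97). Both H2A.Z genes thus lay above the m7G medians of 1.36 over peaks and 1.60 over genes.

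MACROH2A1 had 74.1 RPM in the m7G IP against 57.7 RPM in the input, a ratio of 1.28 (1.26 to 1.31), which turned to 0.941 with the median peak set to 1. H3-3B had 103 RPM in the IP against 85.6 RPM in the input, a ratio of 1.20 (1.18 to 1.23), which turned to 0.883 under the same scaling. H1-10 had 81.2 RPM in the IP against 80.0 RPM in the input, a ratio of 1.01 (0.995 to 1.03, adjusted p = 0.148 by the exact binomial test), which turned to 0.744. So 4 genes were higher (background 81.9% of m7G genes), 0 were lower (background 11.9%) and 1 was not called, but only the 2 H2A.Z genes stayed above 1 under median scaling. Of the 11 peaks, 4 were higher (background 66.2%), 4 were lower (background 21.5%) and 3 were not called, with a median ratio of 1.002 against 1.36 over all m7G peaks. With the median peak set to 1, 46.2% of all m7G peaks were higher and 45.5% lower, and 4 of the 11 were higher and 7 lower.

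**Figure D2:**
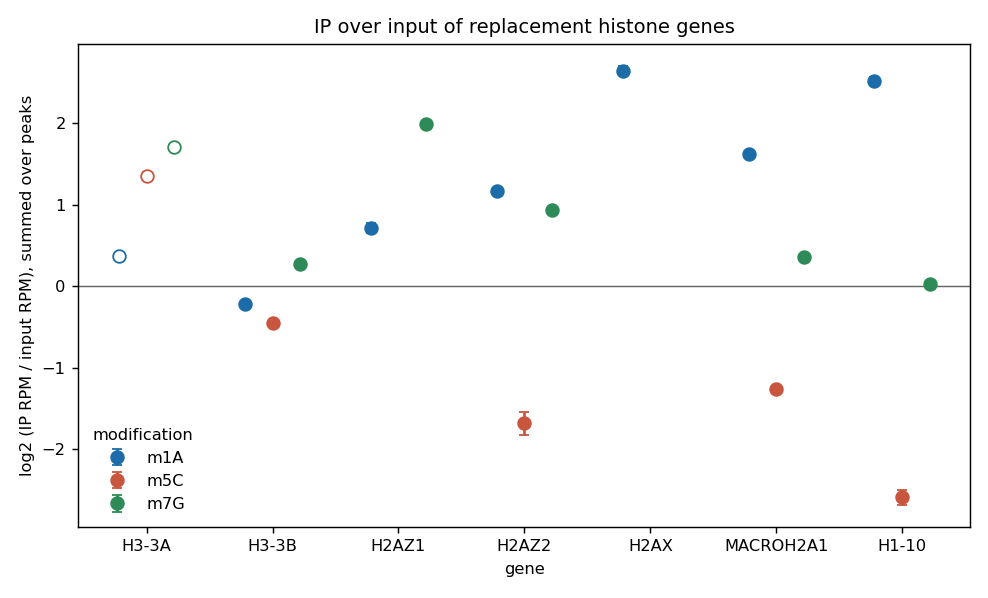
IP over input RPM summed over each gene's listed peaks, as log2, by gene and modification. Filled points have 95% exact counting intervals, open points for H3-3A come from peaks that name a second gene, and the line is a ratio of 1. m1A points lie between 0.860 (H3-3B) and 6.26 (H2AX) as ratios, and all 4 filled m5C points lie below 1. With the median peak of each list at 1, the m1A point of H2AZ1 and the m7G points of H3-3B, MACROH2A1 and H1-10 turn to below 1.

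**Figure D3:**
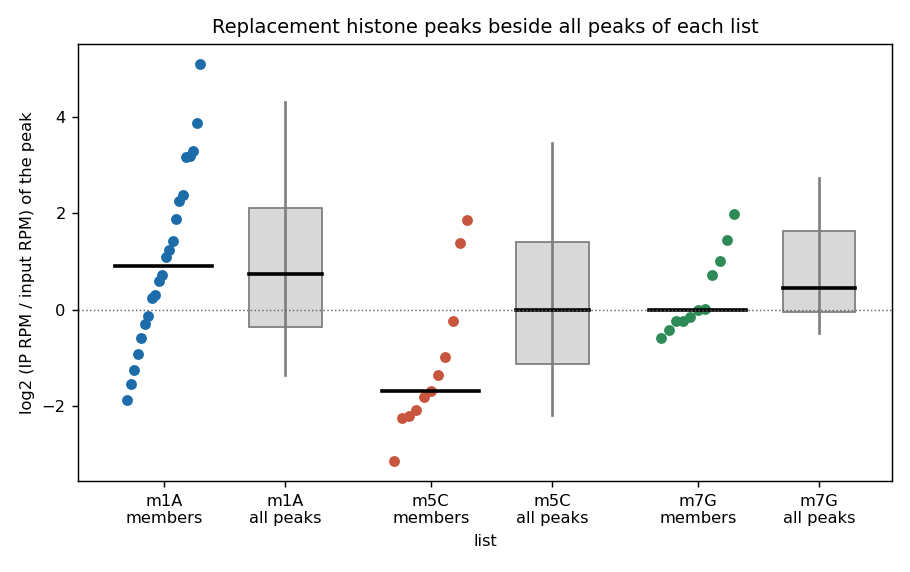
IP over input RPM ratio of single peaks, as log2. Points are the 22 m1A, 11 m5C and 11 m7G peaks of the replacement histone genes with a line at their median, and grey boxes show the quartiles of all peaks of a list with whiskers at the 5th and 95th percentile. The median ratio was 1.89 against 1.67 for m1A, 0.312 against 1.01 for m5C and 1.002 against 1.36 for m7G.

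Ratios also varied along a gene. H3-3B had 8 m1A peaks over 1695 bases of its span, and from 5′ to 3′ their ratios were 4.75, 2.36, 2.14, 1.19, 0.821, 0.344, 0.275 and 1.24. The first, in 2 blocks on either side of a gap of 472 bases, had 6.97 RPM in the IP against 1.47 RPM in the input (ratio interval 4.31 to 5.23). The seventh had 4.03 RPM in the IP against 14.7 RPM in the input (0.258 to 0.293). The first 4 peaks were called higher, the next 3 lower, and the last higher again with an adjusted p of 0.0426 by the exact binomial test. Most of the gene's input reads lay under the 3 lower peaks, and the fifth peak alone had 27.3 RPM in the IP against 33.3 RPM in the input. The summed ratio is below 1 although 5 of the 8 peaks are above it.

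H1-10 had 4 m1A peaks, and all were higher in the IP. The 5′-most, a block of 25 bases at 341 to 365 bases from the gene's 5′ end, had 7.79 RPM in the IP against 0.227 RPM in the input, a ratio of 34.2 (27.5 to 43.2), at the 97.5th percentile of m1A peaks. The next peak, 375 bases long, held most of the signal, with 67.1 RPM in the IP against 12.9 RPM in the input, a ratio of 5.19. The 2 peaks beyond it had ratios of 9.14 and 8.95 on 58 and 27 input reads.

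H2AX had 3 m1A peaks with ratios of 14.6, 2.69 and 1.50 from 5′ to 3′. The first, 300 bases long, had 37.8 RPM in the IP against 2.59 RPM in the input (13.7 to 15.6), and lay 16 to 315 bases from the gene's 5′ end. The other 2 lay between 1191 and 1465 bases, in the distal part of the 1592-base span, with 8.90 and 3.10 RPM in the IP against 3.31 and 2.06 RPM in the input. The RNA in that distal part can come from the long polyadenylated form of the transcript, and the lists do not say which form a read came from.

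H2AZ2 had 2 m1A peaks that differed in direction. The 5′ peak, in 5 blocks, had 121 RPM in the IP against 12.4 RPM in the input, a ratio of 9.76 (9.46 to 10.1). The 3′ peak, a single block of 625 bases, had 21.3 RPM in the IP against 50.7 RPM in the input, a ratio of 0.420 (0.408 to 0.432). The 5′ ratio was 23.2 times the 3′ ratio.

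MACROH2A1 had its m1A signal in a 5-block peak at the 5′ end, with 246 RPM in the IP against 66.4 RPM in the input, a ratio of 3.71 (3.66 to 3.76). Its other 3 m1A peaks had ratios of 0.666, 0.533 and 0.913, and all were called lower. For m5C the highest ratio lay at the other end. The 3 peaks towards the 5′ end had ratios of 0.211, 0.509 and 0.285, whereas the 3′-most peak had 12.0 RPM in the IP against 3.33 RPM in the input, a ratio of 3.61 (3.31 to 3.94). At that 3′ end the m1A and m5C peaks share 225 bases. In the authors' deposited table the log2 enrichment of this m5C peak was 4.13, at the 84.1st percentile of the m5C list.

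H3-3B also had its highest m5C ratio in the 3′-most peak, with ratios of 0.392, 0.218, 0.851 and 2.63 from 5′ to 3′. Its 3′-most m5C peak, 250 bases long, had 30.8 RPM in the IP against 11.7 RPM in the input (2.50 to 2.76), and the m1A peak with a ratio of 0.275 lies inside it. The third m5C peak was only just called lower (adjusted p = 0.0451 by the exact binomial test). In H1-10 both m5C peaks were lower, with ratios of 0.239 at the 5′ side and 0.114 at the 3′ side. The second of these, 3.63 RPM in the IP against 32.0 RPM in the input, was at the 0.0504th percentile of all m5C peaks.

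m7G ratios were highest in the 5′-most peak of each gene with several. In H3-3B the ratios were 2.73, 1.002 and 0.857, and the last 2 were not called. In MACROH2A1 they were 1.65, 0.901, 0.747 and 0.852, with the first higher and the others lower. In H2AZ2 the 5′ peak had 62.4 RPM in the IP against 31.1 RPM in the input, a ratio of 2.01 (1.96 to 2.06), and a 25-base peak towards the 3′ end had 1.50 RPM in the IP against 2.26 RPM in the input, a ratio of 0.666 (0.585 to 0.758). H2AZ1 has 1 m7G peak, in 3 blocks that begin at base 0 of the gene.

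As counts, the 5′-most m1A peak had the highest ratio in 5 of the 5 genes with 2 or more m1A peaks, against 60.5% of 6337 genes in the list, and the 3′-most in 0, against 18.7%. The 5′-most m7G peak had it in 3 of 3, against 85.6% of 4261 genes, and the 3′-most in 0, against 8.43%. For m5C the 3′-most peak had it in 2 of 3, against 51.3% of 5157 genes, and the 5′-most in 1, against 24.9%. The lead of the 5′ peak in m1A and m7G and of the 3′ peak in m5C was noticed in the data, it is the more common order in each list, and with 3 to 5 genes it is a description of them.

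**Figure D4:**
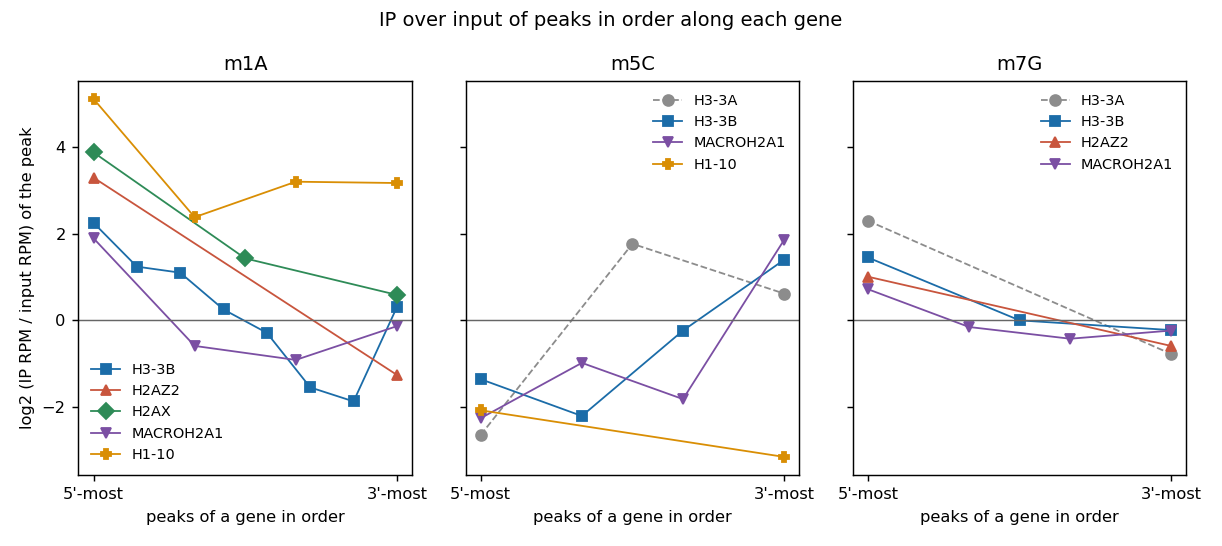
IP over input RPM ratio of each listed peak, as log2, against its order along the gene, with the 5′-most peak at the left and the 3′-most at the right of each panel. Each line is a gene with 2 or more peaks in that list, dashed grey lines are H3-3A peaks that name a second gene, and the horizontal line is a ratio of 1. m1A and m7G lines start at their highest point, and the m5C lines of H3-3B and MACROH2A1 end at theirs, at 2.63 and 3.61 as ratios.

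The modifications shared positions as well as genes. Of the 11 m7G peaks, 9 overlapped an m1A peak of the same gene by at least 1 base (81.8%, against 69.9% of 15444 m7G peaks in genes with both). Of 19 m1A peaks in genes with both, 10 overlapped an m7G peak (52.6%, against 41.3%). For m5C, 9 of 11 peaks overlapped an m1A peak (81.8%, against 58.6%), and 12 of 18 m1A peaks overlapped an m5C peak (66.7%, against 43.7%). The share of m7G peaks that overlapped an m5C peak was 7 of 10 (70.0%, against 53.8%). These 5 shares lie above the list's own, but the peaks sit in 4 or 5 genes and are not independent.

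Where peaks overlapped, the m5C ratio was mostly the lower one. In 7 of 7 overlapping pairs the m7G ratio was above the m5C ratio (67.8% of 8243 pairs in all genes), and in 10 of 13 the m1A ratio was above the m5C ratio (56.2% of 12845). The 3 exceptions were the 3′ peaks of H3-3B (a pair of m1A peaks on 1 m5C peak) and of MACROH2A1. The m1A ratio was above the m7G ratio in 7 of 11 pairs, against 43.2% of 11736 pairs. H1-10 shows the spread at 1 place: the ratio was 34.2 for the m1A peak of 25 bases, 1.01 for the m7G peak of 200 bases and 0.239 for the m5C peak of 175 bases that both contain it.

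Peaks in several blocks had common gaps in different lists. The same gap of 472 bases in H3-3B and the same gap of 4614 bases in H2AZ2 were found in the m1A, m5C and m7G lists, and MACROH2A1 had 3 such gaps, of 510, 9935 and 18779 bases. H2AZ1 had a gap of 427 bases in the m1A and m7G lists. The lists give the ends of blocks and not the reads, so whether reads join across these gaps was not tested.

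The inputs themselves differed at the 1 peak of these genes that 2 lists hold with the same ends. The first H3-3B peak (chr17:75779153-75779774, minus strand) had an m1A input of 1.47 RPM and an m7G input of 10.1 RPM, an m7G over m1A quotient of 6.86. Over the 840 peaks that both lists hold with the same ends, the quotient had a median of 1.59 and quartiles of 0.878 and 2.84. The m7G IP at this peak was 27.5 RPM and the m1A IP 6.97 RPM, a quotient of 3.94. A ratio at this peak thus rests on inputs that differ between lists by more than the IPs do, and the part of the input in the higher m1A ratio (4.75, against 2.73 for m7G) was not tested.

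H3-3A, the second H3.3 gene, has no antibody peak under the rule, because all 6 peaks that list it also name H3P6. RefSeq places H3P6, a transcribed pseudogene, on chromosome 2 (chr2:174719800-174720858), while the peaks lie in H3-3A on chromosome 1. H3-3A and H3P6 may share reads, as H3-3B and its retrocopy H3-5 may, so the following values are uncertain. These peaks enter no count above except that of genes and start sites with listed bases at a start. Summed over peaks, H3-3A had 226 RPM in the m7G IP against 69.1 RPM in the input, a ratio of 3.28, the second highest m7G ratio beside that of H2AZ1. It had 67.5 RPM in the m5C IP against 26.5 RPM in the input, a ratio of 2.55, where the 4 listed genes were all below 1.

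Its m1A peak had 72.5 RPM in the IP against 56.0 RPM in the input, a ratio of 1.30. Along H3-3A the m7G ratio was 4.91 (4.81 to 5.01) in the 5′ peak, which begins at the start base shown above, and 0.585 in the 3′ peak. The m5C ratio was 0.161 in a 25-base peak at the 5′ end, then 3.40 and 1.54. The sums of the 2 H3.3 genes, H3-3A and H3-3B, were 1.30 and 0.860 for m1A, both below the median of 1.52 over m1A genes. For m5C they were 2.55 and 0.729. Among the better-ranked peaks both H3-3B sums were above 1. The 5′-most m5C peaks of both genes were below 1 and their 5′-most m7G peaks above it.

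Psi was listed in 5 of the 7 genes with 9 peaks, and not in H3-3B or H2AX. The 2 H3-3A peaks had the highest folds over local background of the 9, 8.88 and 8.04, at the 98.4th and 96.8th percentile of 16672 Psi peaks, with pileups of 9 and 8 tags. Their summits lay 508 and 120 bases from the 3′ end of the gene span. The H1-10 peak, 55 bases from the 3′ end, had a fold of 5.22 and a pileup of 5. These 3 summits lie near 3′ ends, but so does that of H2AZ1, at 351 bases, which had the lowest fold of the 9, 3.68.

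H2AZ2 had 3 Psi peaks with folds of 4.84, 3.83 and 4.42, at 127, 4798 and 14859 bases from the 5′ end. MACROH2A1 had 2, with folds of 3.91 and 3.90 at 724 and 10876 bases, and H2AZ1 had 1 with a fold of 3.68, 351 bases from the 3′ end. These 6 folds lie around the list median of 3.95. Of the 9 peaks, 5 overlapped an antibody peak, and the 2 MACROH2A1 peaks and the 2 towards the 5′ end of H2AZ2 overlap m1A, m5C and m7G blocks alike. The other one, in H3-3A, overlaps m1A and m5C peaks that name a second gene. The share of all Psi peaks that overlap an antibody peak is not given here, so this count only describes the 9 peaks. The folds and pileups are those of the authors' caller, made without a control library or strand, from 2218798 tags left after filtering, with a median pileup of 4, so no comparison of IP and input was possible for Psi.

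By the summed log2 ratios over the lists that a gene was in, with 1 RPM added to each value, each replacement histone gene was set beside the 1 nearest gene of the same lists. H3-3B was nearest to NABP1 (Euclidean distance 0.13 over 3 lists, among 3036 genes), H2AZ2 to C5orf66 (0.15), MACROH2A1 to MAFF (0.06) and H1-10 to PLXNB2 (0.26). H2AZ1 was nearest to SNX11 (0.07 over 2 lists, among 737 genes) and H2AX to TRABD (0.01 over 1 list, among 566 genes).

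For m1A, m5C, m7G and Psi, a smaller share of the other histone genes than of the 7 was listed. Of 15 replacement histone genes outside the 7, 4 were listed for m1A (all higher, as 62.1% of m1A genes were), 2 for m5C (both lower, as 40.7% were), 4 for m7G (all higher, as 81.9% were), 3 for Psi and 0 for ac4C. Among them CENPA, the centromeric H3 variant, had 17.5 RPM in the m1A IP against 0.869 RPM in the input, a ratio of 20.2 (18.0 to 22.7). Of 69 replication-dependent histone genes in RefSeq, 1 was listed for m1A, 5 for m5C, 9 for m7G, 1 for ac4C and 3 for Psi. Of the 5 with m5C peaks, 1 was higher (49.8% of m5C genes were), 3 were lower (40.7% were) and 1 was not called. The higher one, H4C3, rested on 15 input reads. All 9 with m7G peaks were higher in the IP (81.9% of m7G genes are), from 1.89 (1.71 to 2.09) for H2BC5, with 4.28 RPM in the IP against 2.27 RPM in the input, to 9.48 (6.03 to 15.6) for H4C3. Their inputs were low, between 10 and 588 reads, against 5686 to 22194 reads for the replacement genes in the same list.

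Genes for proteins that deposit or read these variants are set here against the shares of all genes in each list. The m1A list had 62.1% of genes higher and 31.4% lower. In the m5C list 49.8% were higher and 40.7% lower, and in the m7G list 81.9% were higher and 11.9% lower. Of 9 genes for H3.3 deposition, 8 were listed for m1A (6 higher, 2 lower) and 8 for m5C (5 higher, 1 lower), with 6 for m7G (6 higher). ATRX, the remodeller that places H3.3 at repeats with DAXX, had 1801 RPM in the m5C IP against 272 RPM in the input, a ratio of 6.62 (6.56 to 6.68), and NASP, a histone H3-H4 chaperone, had an m1A ratio of 0.637. Of 13 genes for H2A.Z exchange, 12 were listed for m1A (8 higher, 4 lower), 11 for m5C (3 higher, 8 lower) and 12 for m7G (11 higher, 1 lower). In this list ZNHIT1, a subunit of the SRCAP remodeller, had the highest m1A ratio, 14.0 (13.5 to 14.5), VPS72, another subunit, had the lowest m5C ratio, 0.231, and YEATS4 had the highest m5C ratio, 6.93.

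Of 10 genes for H2AX phosphorylation and its readers, 8 were listed for m1A, and 7 of those 8 were lower in the IP (31.4% of all m1A genes were) and 1 was higher (62.1% were). The difference of these genes from H2AX was not tested. PPP4C, a phosphatase subunit, was the 1 higher gene, with 1057 RPM in the IP against 39.1 RPM in the input, a ratio of 27.0 (26.6 to 27.5). ATM, the kinase that phosphorylates H2AX, had the lowest m1A ratio, 0.403 (0.370 to 0.438), and the highest m5C ratio, 7.27 (6.38 to 8.30), whereas PPP4C had the lowest m5C ratio, 0.232. Of 10 genes for histone pre-mRNA processing, 5 were listed for m1A (3 higher, 2 lower), 4 for m5C (2 higher, 2 lower) and 6 for m7G (4 higher, 2 lower). In ac4C none of the replacement histone genes had a peak, and 37.6% of protein-coding genes in any list had 1. Of the H3.3 deposition genes 7 of 9 had an ac4C peak, and of the H2A.Z exchange genes 6 of 13. Of the genes for H2AX phosphorylation and its readers 7 of 10 had an ac4C peak.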

How the data were processed

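The members and the gene lists were chosen with earlier results of these data known. Per the labels' protocols, a stranded mRNA kit with unique molecular identifiers was used. The submitters' processing notes name HISAT2, StringTie, DESeq and the build hg38 but give them no roles. For the antibody lists, a peak caller was not given in the sources used here. The authors deposited RPM values of the pooled IP and pooled input for each antibody peak. The deposited log2 enrichment and the deposited p-value of each peak were used to describe peaks and, for the adjusted p-value, to make a stricter list. Per the file headers, MACS 2.2.6 called the Psi peaks on the 3 pooled libraries with no control. Their pileup signal, fold over local background and −log10 p-value and q-value are the caller's, per the file headers.

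Pooled depths were recovered from RPM steps, and 100% of values were whole reads within 0.1 read. A test across libraries was planned where values per library exist. The lists hold none, so the exact binomial test was used, tested on simulated data. Peaks naming several genes were left out of gene sums, and no coordinates were converted. Named genes are all 7 members, the genes with the highest and lowest summed ratio of each list (at least 10 input reads), described in part, and for each member the nearest gene by log2 ratios. Some genes that this rule names are not reported here. Alternatives covered scaling, low values, stricter peaks, gene assignment, the test, the Psi threshold and the overlap. Python 3.11.15, numpy 2.4.6, pandas 2.3.3, scipy 1.17.1 and matplotlib 3.10.9 were used.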

Additional observations from a re-analysis of the deposited data

How the results depend on the processing

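With the median peak at a ratio of 1, the summed ratio turned below 1 for H2AZ1 in m1A (0.982) and for H3-3B (0.883), MACROH2A1 (0.941) and H1-10 (0.744) in m7G, and 7 m7G peaks were lower in place of 4. Among peaks better than the median by the authors' adjusted p, the summed H3-3B ratio turned above 1 for m1A (1.03) and m5C (1.65), that of H2AZ2 for m1A moved to 9.76, no m7G peak of H2AZ1 or MACROH2A1 was left, 3 m1A peaks were lower in place of 7, and for m7G 2 peaks were higher and 0 lower in place of 4 and 4. There the 5′-most peak was highest in 0 m5C genes in place of 1 and in 1 m7G gene in place of 3, since fewer peaks were left. That comparison of peak order was chosen after seeing the data. With peaks that also name another gene, 4 m5C peaks were higher in place of 2. A filter at 10 input reads, Fisher's exact test, an overlap of 50% of the shorter peak, and the Psi alternatives (any overlap with the span, −log10 q of 2 or more) kept each value they were run for within 1.5 times. No paired analysis was possible because the lists hold 1 pooled IP and 1 pooled input value per peak, and for the same reason no replicate was left out. The ac4C IP had the fewest reads, 17135274, and its list held none of the 10 hepatocyte markers.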
